A study of Mus musculus with 6 samples.

Results

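The genes described here encode IFN-β, 4 members of the IFN-α family, and both chains of the type I and of the type II interferon receptor. They were chosen by gene symbol, with earlier results of these data known. All 9 symbols (*Ifnb1*, *Ifna1*, *Ifna2*, *Ifna4*, *Ifna5*, *Ifnar1*, *Ifnar2*, *Ifngr1* and *Ifngr2*) were found among the 55453 genes counted. The RNA-Seq compared bone marrow-derived macrophages (BMDM) of 2 genotypes, with 3 libraries each, to ask how loss of PP2Ac, the catalytic α subunit of protein phosphatase 2A, changes macrophage gene expression. PP2Ac KO cells came from LysMcre PP2Ac fl/fl mice, in which cre under the *Lyz2* promoter deletes floxed exon 1 of *Ppp2ca* in myeloid cells. PP2Ac WT cells came from C57BL/6 mice, for which neither cre nor the floxed allele is stated. The study had its LysMcre PP2Ac fl/fl mice, also on C57BL/6, from the University of Michigan and its WT mice from The Jackson Laboratory. The source of the mice therefore cannot be told apart from genotype here. Both groups were taken as treated with cGAMP, the second messenger that activates STING, because the study describes such samples for its RNA-Seq. The labels name no treatment, age or sex, and there was no unstimulated group, so no value below is an induction by cGAMP. Nothing in the labels says that the replicates came from separate mice or cultures, so p-values measure the spread between these libraries, which may be partly technical.

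Type I interferons are secreted when a cell senses foreign or misplaced nucleic acid, and STING, TBK1 and the transcription factors IRF3 and NF-κB switch on *Ifnb1* early. IFN-β and the IFN-α proteins bind the same receptor of IFNAR1 and IFNAR2 chains, which signals through the kinases TYK2 and JAK1 to STAT2 and IRF9, and the IRF7 made in response allows more *Ifna* genes to be transcribed. IFN-γ, made mainly by T and NK cells, binds a separate receptor of IFNGR1 and IFNGR2 chains, which signals through JAK1 and JAK2 and activates macrophages.

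*Ppp2ca* itself had 33 to 47 counts in the PP2Ac KO libraries and 8279 to 10654 in the PP2Ac WT libraries, so every library matched its label. Sex-linked genes read as male in both genotypes. The Y-linked *Ddx3y* had 2070 to 2723 counts in PP2Ac KO and 2630 to 3404 in PP2Ac WT, and *Xist* at most 1 and 3. Total counts per library ran from 35257156 to 47390899. Levels are given as CPM, counts scaled to library size with TMM factors, and the limit of detection was set at 3 counts, or 0.0604 to 0.0909 CPM, for counting error only. Summed over 8 macrophage markers, levels were 8994 to 9056 CPM in PP2Ac KO and 7589 to 8156 CPM in PP2Ac WT. Of these 8, *Mertk* and *Fcgr1* were higher at an adjusted p under 0.05 (2, beside 18.1% of all genes tested) and 0 lower (beside 19%). *Fcgr1*, which interferon also induces, had 982.1 ± 20.2 against 604.1 ± 76.6 CPM (SD, n = 3 each). Without overlap, 4 lay higher (beside 24%), among them *Csf1r*, which did not pass the test, at 3405 ± 137.3 against 3011 ± 179.0 CPM (SD, n = 3 each). T and NK cell markers reached at most 5 counts in a library, with *Cd8a* at 0. The 4 fibroblast markers fell together, from 74.9 to 117.7 CPM in sum in PP2Ac WT to 22.7 to 33.4 CPM in PP2Ac KO. Of 13680 genes tested, 2470 (18.1%) rose and 2604 (19%) fell in PP2Ac KO (adjusted p under 0.05), and 460 (3.36%) passed the study's thresholds of a log2 fold change over 1 and an adjusted p under 0.01. The balance depended on scaling. Upper-quartile scaling gave 2095 higher and 3356 lower genes, and library totals alone, which moved the median gene from a log2 fold change of -0.024 to -0.24, gave 1503 and 6125. An alternative fit paired the libraries by replicate number, although nothing in the labels says what libraries of the same number share. In that fit, blocked by the number, 3343 genes (24.4%) were higher and 3615 (26.4%) lower. Without overlap between the groups, 3290 genes (24%) lay higher and 3673 (26.8%) lower.

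Among the ligands, *Ifnb1* and *Ifna2* were higher in PP2Ac KO by more than 2-fold, with log2 fold changes of 1.32 and 1.37, while *Ifna4* and *Ifna5* did not pass the test and *Ifna1* had too few counts for it. Among the receptor genes, differences were far smaller. *Ifnar2* passed at 0.23, *Ifnar1* and *Ifngr2* had values near 0.2 that passed with the block, and *Ifngr1* had a value below 0. Of the 8 members tested, 3 were higher (beside 18.1% of all genes) and 0 lower (beside 19%) at an adjusted p under 0.05. In the blocked fit 5 were higher (beside 24.4%) and 1 lower (beside 26.4%), and the libraries of 5 of the 9 members lay higher in PP2Ac KO without overlap (beside 24%). Their median log2 fold change was 0.31, beside -0.024 over all genes tested.

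**Figure D1:**
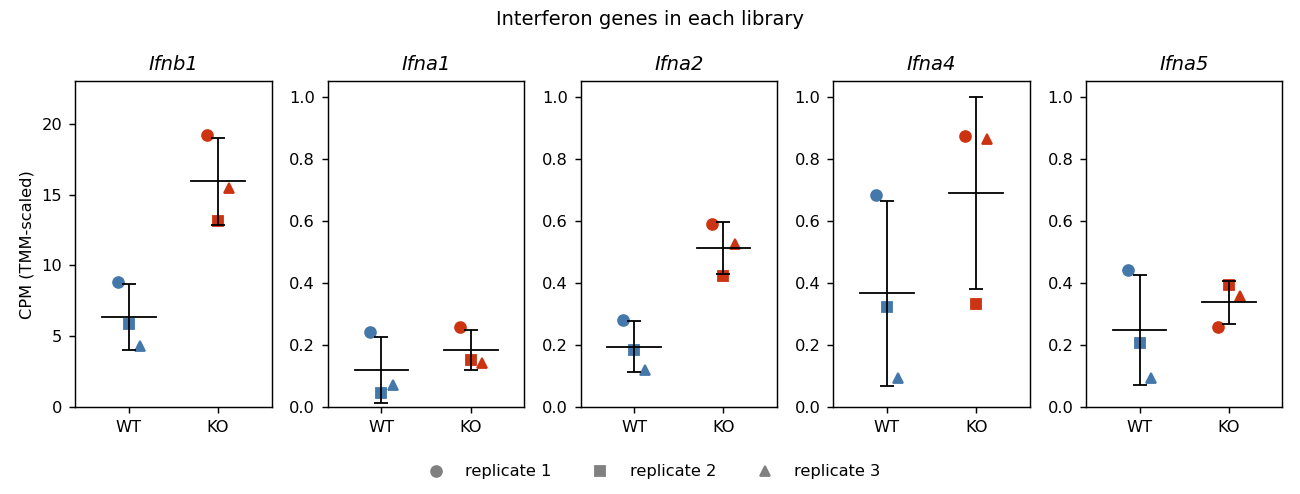
CPM with TMM factors (vertical axis) of the 5 interferon genes in each PP2Ac WT and PP2Ac KO library, with the mean and SD of 3 libraries; the 4 *Ifna* panels share an axis that is far shorter than that of *Ifnb1*. *Ifnb1* lay between 13.1 and 19.2 CPM in PP2Ac KO and between 4.32 and 8.86 CPM in PP2Ac WT, and only *Ifna2* among the *Ifna* genes also had no overlap.

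*Ifnb1* encodes IFN-β, the type I interferon that fibroblasts and macrophages make first. It is a gene of a single exon of 750 bases on the reverse strand of chromosome 4, from 88522025 to 88522774 in GRCm38. It was counted 815, 433 and 644 times in PP2Ac KO replicates 1, 2 and 3, and 440, 257 and 181 times in PP2Ac WT replicates 1, 2 and 3. In CPM these were 19.2, 13.1 and 15.4 in PP2Ac KO and 8.86, 5.91 and 4.32 in PP2Ac WT. The lowest PP2Ac KO library lay above the highest PP2Ac WT library, and replicate 1 was the highest of each genotype. The mean of 15.9 ± 3.08 CPM in PP2Ac KO was 2.49-fold the mean of 6.36 ± 2.30 CPM in PP2Ac WT (SD, n = 3 each). By the quasi-likelihood test of edgeR, with p-values adjusted by Benjamini-Hochberg, *Ifnb1* had a log2 fold change of 1.32 (SE 0.23, adjusted p = 0.00200). *Ifnb1* was the only member past the study's thresholds. Between libraries with the same replicate number the log2 ratio was 1.12, 1.15 and 1.84, positive in 3 of 3. In bulk RNA, fewer cells that express a gene and less RNA per cell cannot be told apart, which holds for every difference given here.

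The 4 *Ifna* genes lie on the same chromosome, and from *Ifnb1* to *Ifna1* the locus spans 328632 bases. *Ifna2* (chromosome 4, 88682881 to 88683912, reverse strand), *Ifna5* (88835525 to 88836094, forward), *Ifna4* (88841861 to 88842421, forward) and *Ifna1* (88850087 to 88850656, forward) each have a single exon in the annotation. The stretches of promoter below are given because these 5 genes share sensors and receptor but had different levels. Sequences are from the RefSeq promoter table of GRCm38.p6, 5′ to 3′ toward the gene, and positions count back from its annotated start. The stretches run from -170 to -1, except that of *Ifna2*, which runs from -250 to -134 and so ends before that start. Capitals mark AANNGAAA, the core of a site for interferon regulatory factors (IRFs), and, in *Ifnb1* only, a form of the NF-κB site (GGGA, any 2 bases, TTCC).
Ifnb1 (chr4:88522795-88522964, reverse strand): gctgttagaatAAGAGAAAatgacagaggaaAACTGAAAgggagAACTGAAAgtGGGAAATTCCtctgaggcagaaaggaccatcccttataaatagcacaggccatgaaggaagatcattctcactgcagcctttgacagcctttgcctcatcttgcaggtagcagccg
Ifna1 (chr4:88849917-88850086, forward strand): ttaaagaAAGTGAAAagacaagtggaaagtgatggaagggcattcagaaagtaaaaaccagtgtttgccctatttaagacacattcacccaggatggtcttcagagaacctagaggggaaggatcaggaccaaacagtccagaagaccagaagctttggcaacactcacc
Ifna2 (chr4:88683913-88684029, reverse strand): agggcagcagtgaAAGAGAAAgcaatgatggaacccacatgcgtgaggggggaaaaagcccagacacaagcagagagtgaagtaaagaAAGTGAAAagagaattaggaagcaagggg
Ifna4 (chr4:88841646-88841815, forward strand): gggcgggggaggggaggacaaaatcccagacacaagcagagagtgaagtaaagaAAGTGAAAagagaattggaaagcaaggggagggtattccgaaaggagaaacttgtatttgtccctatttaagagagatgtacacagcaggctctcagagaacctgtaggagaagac
Ifna5 (chr4:88835355-88835524, forward strand): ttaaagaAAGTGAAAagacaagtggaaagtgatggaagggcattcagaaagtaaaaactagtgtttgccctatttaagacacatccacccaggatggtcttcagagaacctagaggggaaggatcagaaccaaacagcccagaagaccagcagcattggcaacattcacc

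Both motifs were searched, in these letters, on both strands in the 250 bases before the start of 32851 annotated promoters. The *Ifnb1* window held AANNGAAA 3 times, with first bases at -159, -139 and -126, and just after the last of these the NF-κB form from -116 to -107. These matches did not overlap. AANNGAAA occurred in 21.3% of all windows, and 3 or more times in 0.849%. The NF-κB form occurred in 1.21%, and 3 or more IRF cores together with an NF-κB form in 6 promoters (0.0183%). Among the *Ifna* members the IRF core occurred 3 times in the window of *Ifna4*, 2 times in those of *Ifna2* and *Ifna5* and once in that of *Ifna1*, some of them before the stretch printed, and the NF-κB form in none. The longest run that the 4 *Ifna* windows share is taaagaAAGTGAAAaga, of 17 bases, which begins at -169 in *Ifna1* and *Ifna5*, at -168 in *Ifna2* and at -122 in *Ifna4*. It is not in the window of *Ifnb1* and occurred in 8 of the 32851 promoters. Of the receptor genes, *Ifnar1*, *Ifnar2* and *Ifngr1* held neither motif and *Ifngr2* held the NF-κB form once. A match of letters is a description and not a binding site. The positions move with the annotated start, which in RefSeq lies 0 to 133 bases from that in GENCODE for these 5 ligands. The stretch that each window covers moves with it, so counts of cores are not like for like between genes. In *Ifna4* the shared run stands nearer the start, and its window therefore reaches further before that run than those of the other *Ifna* members.

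The *Ifna* genes were rare at this depth. *Ifna2* was counted 25, 14 and 22 times in PP2Ac KO replicates 1 to 3 and 14, 8 and 5 times in PP2Ac WT. In CPM the PP2Ac KO libraries (0.589, 0.424 and 0.527) all lay above the PP2Ac WT libraries (0.282, 0.184 and 0.119), although in raw counts the second PP2Ac KO library equalled the first PP2Ac WT library. In edgeR the gene had a log2 fold change of 1.37 (SE 0.35, adjusted p = 0.0131, blocked fit 0.00735). Without PP2Ac KO replicate 1 the adjusted p from edgeR was 0.0529 and without PP2Ac WT replicate 2 it was 0.0502. Over the 17 settings that gave a value for *Ifna2*, the reported one included, the log2 fold change ran from 1.13 to 1.75 and the adjusted p from edgeR, DESeq2 or limma from 0.00676 to 0.0529.

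*Ifna4*, like *Ifnb1* a gene that IRF3 can start early, was counted 37, 11 and 36 times in PP2Ac KO and 34, 14 and 4 times in PP2Ac WT. The groups overlapped, since the second PP2Ac KO library was no higher than 2 of the 3 PP2Ac WT libraries in raw counts. edgeR estimated a log2 fold change of 0.89 (SE 0.55, adjusted p = 0.237, blocked fit 0.106). That value depended on single PP2Ac WT libraries. Without PP2Ac WT replicate 1 it was 1.73 (adjusted p = 0.0361 from edgeR), and without PP2Ac WT replicate 3 it was 0.47 (adjusted p = 0.471 from edgeR). Between same-numbered libraries the log2 ratios were 0.35, 0.050 and 3.18. Over 17 settings including the reported one, the adjusted p from edgeR, DESeq2 or limma ran from 0.0361 to 0.471.

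*Ifna5*, one of the later *Ifna* genes, was counted 11, 13 and 15 times in PP2Ac KO and 22, 9 and 4 times in PP2Ac WT. PP2Ac WT replicate 1 was the highest library of all 6, and edgeR estimated a log2 fold change of 0.38 (SE 0.48, adjusted p = 0.578). Without that library it was 1.12 (adjusted p = 0.0880), and without PP2Ac WT replicate 3 it was 0.018 (adjusted p = 0.982), the ends of its range over 17 settings including the reported one. *Ifna1* was counted 11, 5 and 6 times in PP2Ac KO and 12, 2 and 3 times in PP2Ac WT, too few to pass the filter on low counts, so that it was not tested. Its mean was 0.185 ± 0.0646 CPM in PP2Ac KO against 0.120 ± 0.106 CPM in PP2Ac WT (SD, n = 3 each), with overlap. Counts of *Ifna1* and *Ifna5* are uncertain for a further reason, in that 67.4% of the windows of 50 bases in *Ifna1* and 52.2% of those in *Ifna5* also occur in transcripts of other genes. At 150 bases, the length of a read, the shares were 1.43% and 0%. In *Ifna2* and *Ifna4* 12.2% and 6.45% of windows of 50 bases were shared, and in *Ifnb1* 0%.

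Summed over the 4 genes, *Ifna* counts were 84, 43 and 79 in PP2Ac KO and 82, 33 and 16 in PP2Ac WT. Per 100 counts of *Ifnb1* this was 10.3, 9.93 and 12.3 in PP2Ac KO and 18.6, 12.8 and 8.84 in PP2Ac WT, and the groups overlapped (exact two-sided permutation test, p = 0.6, adjusted p = 0.7 over 6 ratios that were chosen after the values were seen). With 3 libraries a group that test cannot give a p-value under 0.1. By counts, *Ifnb1* was thus the main interferon transcript in every library. In PP2Ac WT all 4 *Ifna* genes were highest in replicate 1, as was *Ifnb1*.

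Of 16 other interferon genes listed in the table, 0 passed the filter on low counts. The genes *Ifna7*, *Ifna16*, *Ifnab*, *Ifne*, *Ifnl2*, *Ifnl3* and *Ifng* had no count in any library. The remaining 9 (*Ifna6*, *Ifna9*, *Ifna11*, *Ifna12*, *Ifna13*, *Ifna14*, *Ifna15*, *Ifnz* and *Ifnk*) had at most 5 counts in a library, with *Ifna6* at 4, 1 and 0 in PP2Ac KO and 5, 2 and 0 in PP2Ac WT, and *Ifna11* at 2, 1 and 1 against 3, 1 and 0. No difference was detectable at this depth for any of them. *Ifng* at 0 counts, the gene of IFN-γ, is the ligand of the type II receptor described next.

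Plasmacytoid dendritic cells, which make much IFN-α, were checked by 6 markers. Without *Bst2*, which interferon also induces, the markers summed to 1.99 to 2.27 CPM in PP2Ac KO and 0.874 to 1.49 CPM in PP2Ac WT, and *Klk1* had at most 1 count. Of the 5 tested, 3 were higher (beside 18.1% of all genes), namely *Bst2*, *Pacsin1* and *Siglech*. *Ccr9* (log2 fold change 0.47, adjusted p = 0.364 from edgeR) and *Cox6a2* (-0.17, adjusted p = 0.708 from edgeR) did not pass. *Siglech* had 20 to 29 counts in PP2Ac KO and 12 to 17 in PP2Ac WT (log2 fold change 0.97, adjusted p = 0.0194 from edgeR). Markers of conventional dendritic cells (1.29 to 2.55 CPM in sum against 1.03 to 1.71), neutrophils (0.839 to 0.939 against 0.664 to 0.906) and B cells (0.684 to 1.34 against 0.501 to 0.584) were low in both genotypes. Of the 2 tested markers of conventional dendritic cells, *Clec9a* was higher in PP2Ac KO (23 to 54 counts against 8 to 29, log2 fold change 1.25, adjusted p = 0.0284 from edgeR). The other, *Flt3*, did not pass (0.19, adjusted p = 0.791 from edgeR). Of those not tested, *Cd209a* had 0 to 7 counts in PP2Ac KO against 7 to 18 in PP2Ac WT. *Zbtb46* had 3 to 21 against 8 to 10, and *Xcr1* 1 to 3 against 0. The part of these cells, and of the fibroblasts whose markers fell, in the ligand levels was not tested.

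**Figure D2:**
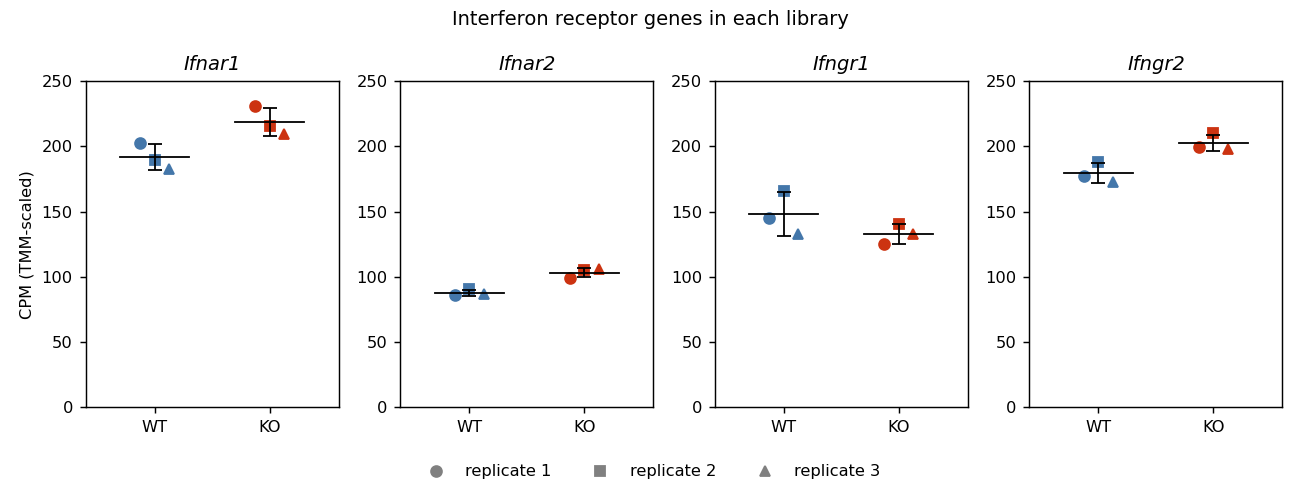
CPM with TMM factors (vertical axis, from 0) of the 4 interferon receptor genes in each library, with the mean and SD of 3 libraries per genotype. *Ifnar1*, *Ifnar2* and *Ifngr2* lay a little higher in PP2Ac KO without overlap, and the *Ifngr1* libraries of both genotypes overlapped.

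The receptor genes were abundant, with 3468 counts or more in every library. *Ifnar1* (chromosome 16, 91485238 to 91507441, forward strand) encodes the chain that binds TYK2. It had 9791, 7123 and 8755 counts in PP2Ac KO and 10062, 8249 and 7666 in PP2Ac WT, which scaled to 230.8, 215.8 and 209.8 CPM and to 202.5, 189.7 and 182.9 CPM. The PP2Ac KO libraries all lay above the PP2Ac WT libraries, though only by a small margin between the lowest of the former and the highest of the latter. In edgeR the gene had a log2 fold change of 0.19 (SE 0.07, adjusted p = 0.0565), and in the blocked fit 0.19 (SE 0.04, adjusted p = 0.00222 from edgeR). Without PP2Ac WT replicate 1 the unblocked value was 0.23 (adjusted p = 0.0201, within a range of 9.78e-04 to 0.750 over 18 settings including the reported one). The log2 ratios of the same-numbered libraries were 0.19, 0.19 and 0.20.

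*Ifnar2* (chromosome 16, 91372783 to 91405589, forward strand) encodes the chain that binds interferon most tightly and carries JAK1. Its CPM were 99.0, 105.1 and 105.6 in PP2Ac KO and 86.2, 90.6 and 86.9 in PP2Ac WT, again without overlap. edgeR estimated a log2 fold change of 0.23 (SE 0.06, adjusted p = 0.0129, blocked fit 6.96e-04). Its exons overlap those of an annotated read-through transcript, *Gm21970*, which was listed at 0 in every library. With upper-quartile scaling the adjusted p of *Ifnar2* from edgeR was 0.0586, and without PP2Ac KO replicate 2 it was 0.0560, within a range of 3.21e-04 to 0.849 over 18 settings including the reported one.

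*Ifngr2* (chromosome 16, 91547072 to 91565623, forward strand), which encodes the signalling chain that carries JAK2, lies close to *Ifnar2* and *Ifnar1*, with *Il10rb* between these, and the 4 genes span 192841 bases. Its CPM were 199.7, 209.8 and 198.0 in PP2Ac KO and 177.1, 187.8 and 172.8 in PP2Ac WT, without overlap. Its log2 fold change by edgeR came to 0.18 (SE 0.06, adjusted p = 0.0563, blocked fit 0.00369). *Il10rb*, which encodes a shared chain of the IL-10 and IFN-λ receptors, had a smaller difference of 0.09 (SE 0.06, adjusted p = 0.228 from edgeR).

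*Ifngr1* (chromosome 10, 19591949 to 19610229, forward strand), which encodes the chain that binds IFN-γ, was the only member with a log2 fold change below 0. Its CPM were 124.9, 140.8 and 132.5 in PP2Ac KO and 144.9, 166.1 and 132.6 in PP2Ac WT. The groups overlapped, since PP2Ac WT replicate 3 lay among the PP2Ac KO libraries. In edgeR the gene had a log2 fold change of -0.16 (SE 0.09, adjusted p = 0.207), and in the blocked fit -0.15 (SE 0.05, adjusted p = 0.0307 from edgeR). Between the same-numbered libraries the log2 ratios were -0.21, -0.24 and -0.00094, so replicate 3 showed next to no difference.

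**Figure D3:**
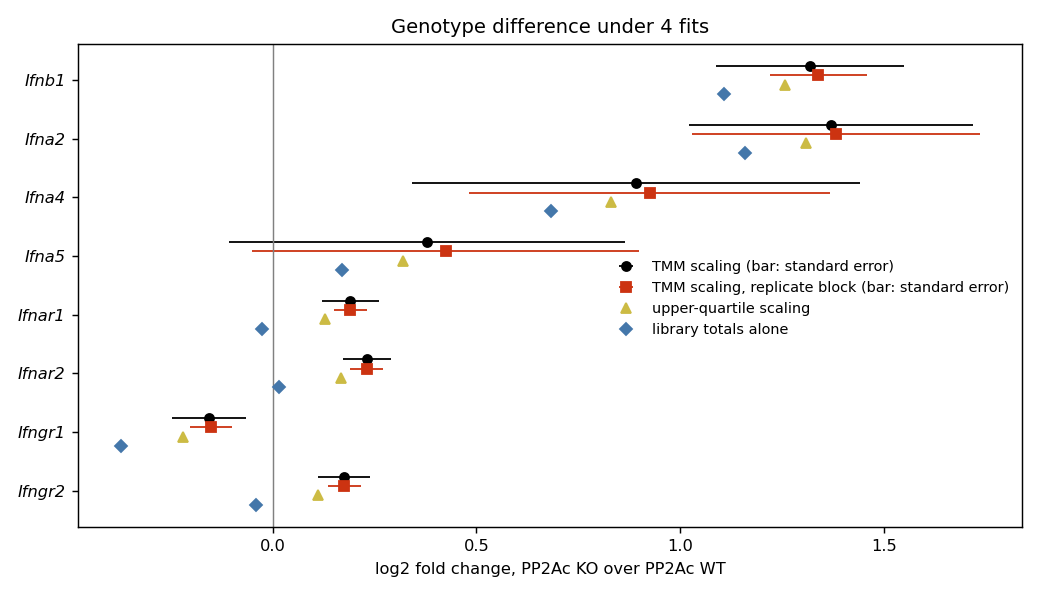
Log2 fold change of PP2Ac KO over PP2Ac WT (horizontal axis) for the 8 members tested, under 4 fits; bars are standard errors of the fits with TMM scaling, and the vertical line marks 0. The ligands stayed right of 0 under all 4, whereas with library totals alone *Ifnar1* (-0.025) and *Ifngr2* (-0.040) lay left of 0.

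The receptor differences were of the size by which scaling alone moved all genes, since with library totals alone the median gene shifted to -0.24. Under that scaling *Ifnar1* had a log2 fold change of -0.025, *Ifnar2* of 0.016, *Ifngr2* of -0.040 and *Ifngr1* of -0.37. A change of scaling moves all genes by nearly the same amount. The distance of a gene from the median gene is thus kept under any scaling and is no further check. With TMM, RLE or upper-quartile scaling *Ifnar1*, *Ifnar2* and *Ifngr2* had log2 fold changes above 0. The *Ifnb1* log2 fold change was 1.11 with library totals alone and ran from 1.11 to 1.64 over 18 settings, the reported one included.

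**Figure D4:**
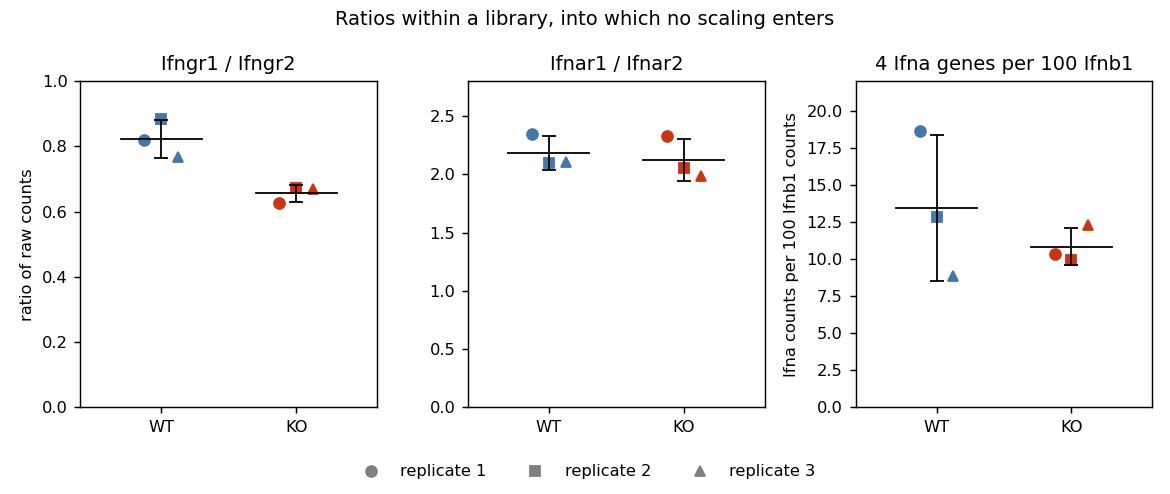
Ratios of raw counts within each library (vertical axes, from 0), with the mean and SD of 3 libraries per genotype. *Ifngr1* per *Ifngr2* was 0.626 to 0.671 in PP2Ac KO and 0.767 to 0.884 in PP2Ac WT, whereas *Ifnar1* per *Ifnar2* and the 4 *Ifna* genes per 100 *Ifnb1* overlapped.

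Ratios of receptor chains within a library do not depend on scaling. *Ifngr1* counts per *Ifngr2* count were 0.626, 0.671 and 0.669 in PP2Ac KO and 0.818, 0.884 and 0.767 in PP2Ac WT. Every PP2Ac KO library lay below every PP2Ac WT library, with means of 0.655 ± 0.0257 and 0.823 ± 0.0588 (SD, n = 3 each; exact two-sided permutation test, p = 0.1, the smallest it can give, adjusted p = 0.2 over the 6 ratios). The chains of the type I receptor kept closer values, with *Ifnar1* per *Ifnar2* at 2.12 ± 0.183 in PP2Ac KO and 2.18 ± 0.145 in PP2Ac WT (SD, n = 3 each; exact permutation test, p = 0.5, adjusted p = 0.7), and these overlapped. *Ifngr1* per *Ifnar1* was 0.609 ± 0.0592 against 0.772 ± 0.0898, without overlap (SD, n = 3 each; exact permutation test, p = 0.1, adjusted p = 0.2). *Ifngr2* per *Ifnar1* was 0.927 ± 0.0556 against 0.937 ± 0.0583 (SD, n = 3 each; exact permutation test, p = 0.7, adjusted p = 0.7). *Ifnb1* counts per 1000 counts of *Ifnar1*, a ligand against its receptor, were 83.2, 60.8 and 73.6 in PP2Ac KO and 43.7, 31.2 and 23.6 in PP2Ac WT (exact permutation test, p = 0.1, adjusted p = 0.2).

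**Figure D5:**
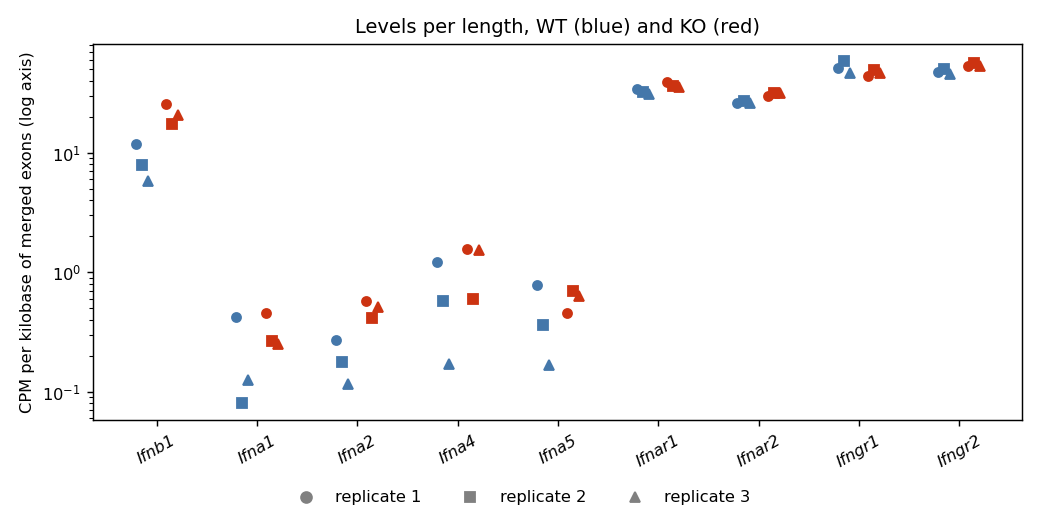
CPM per kilobase of merged exons (vertical log axis) of the 9 members in each PP2Ac WT (blue) and PP2Ac KO (red) library. The 4 receptor genes lay together at the top, *Ifnb1* stood below them, and the *Ifna* genes lay between 0.0807 and 1.55.

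Levels can be compared between genes only per length, here as CPM per kilobase of merged exons. In PP2Ac KO the receptor genes stood in the order *Ifngr2* (53.8 ± 1.70), *Ifngr1* (46.6 ± 2.79), *Ifnar1* (36.8 ± 1.82) and *Ifnar2* (31.0 ± 1.10; SD, n = 3 each). In PP2Ac WT *Ifngr1* (51.9 ± 5.95) and *Ifngr2* (47.6 ± 2.04) overlapped between libraries, although *Ifngr1* was the higher of the pair within each of the 3, and both lay above *Ifnar1* (32.3 ± 1.68) and *Ifnar2* (26.4 ± 0.706; SD, n = 3 each). With the longest transcript as the length, *Ifngr2* fell to the third place. *Ifnb1* was at 21.2 ± 4.10 in PP2Ac KO and 8.48 ± 3.07 in PP2Ac WT, nearer to the receptor genes in PP2Ac KO. *Ifna4* came next, at 1.23 ± 0.550 and 0.655 ± 0.530 CPM per kilobase, then *Ifna5* (0.592 in PP2Ac KO and 0.436 in PP2Ac WT). *Ifna2* (0.498 and 0.189) and *Ifna1* (0.324 and 0.210) were lowest, with opposite order in the 2 genotypes, and libraries of these 3 genes overlapped in part. Annotated lengths were unlike, at 570 bases for *Ifna1* and *Ifna5*, 561 for *Ifna4*, 1032 for *Ifna2* and 750 for *Ifnb1*. The order of the ligands rests on these lengths, and whether they cover the whole transcripts was not tested.

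The pathway around these genes was read from lists of named genes. Counts called on each list stand beside 18.1% of all genes tested that were higher and 19% that were lower. Of 17 genes that act in interferon induction, 11 were higher and 1 lower (median log2 fold change 0.41), led by *Irf7*, the factor that amplifies *Ifna* transcription (1744 ± 139.5 CPM against 605.4 ± 119.0, SD, n = 3 each; log2 fold change 1.53, adjusted p = 9.07e-05 from edgeR), by *Myd88*, an adaptor of Toll-like receptors (1.03), and by *Ikbke*, a kinase related to TBK1 (0.91). The gene that was lower was *Mavs*, the adaptor of the RNA sensors (-0.45). *Irf3*, which starts *Ifnb1* transcription downstream of STING, had a log2 fold change of -0.05 (adjusted p = 0.636 from edgeR). Other genes of that route were among the 11 higher. These were *Cgas*, of the enzyme that makes cGAMP (0.39, adjusted p = 0.00244 from edgeR), *Tmem173*, which encodes STING (0.35, adjusted p = 0.00754 from edgeR), and *Tbk1* (0.45, adjusted p = 0.00346 from edgeR). Of 7 kinases, STATs and partners at the receptors, 6 were higher and 0 lower (median 0.65), with *Jak2* at 1.18 and *Tyk2* at 0.71. *Jak1*, which serves both receptors, was the one that did not pass (0.14, adjusted p = 0.181 by edgeR, blocked fit 0.0176).

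Of 12 genes that restrain or remove the receptors, 8 were higher (beside 18.1% of all genes) and 0 lower (beside 19%), with a median of 0.36. *Socs3*, an inhibitor of JAK signalling, had a log2 fold change of 1.44, *Usp18*, which binds IFNAR2 and damps its signal, of 1.27, and *Socs1* of 0.81. All 20 genes of a list of type I interferon-stimulated genes were higher (median 1.07), 12 of them past the study's thresholds (beside 3.36% of all genes). Among them were *Ifi44* at 2.55, *Oasl1* at 1.63 and the chemokine gene *Cxcl10* at 1.36. Of 10 genes led by IFN-γ, several of which type I interferon also induces, 9 were higher and 1 lower (median 0.76). *Cxcl9* had a log2 fold change of 2.24, *Gbp2* of 1.67 and *Gbp5* of 1.47, while *Ciita*, the activator of MHC class II genes, was lower at -1.09 (adjusted p = 2.87e-04 from edgeR). *Irf1* and *Socs1* stand on 2 of these lists, *Fcgr1* is also a macrophage marker and *Bst2* also a marker of plasmacytoid dendritic cells. Among 8 other chains of the same receptor family 4 were tested and 1 was higher, near the share of 18.1% over all genes. It was *Il10ra*, of the IL-10 receptor (435.0 ± 27.6 CPM against 305.8 ± 32.7, SD, n = 3 each; log2 fold change 0.51, adjusted p = 0.00222 from edgeR).

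The genes whose log2 CPM followed *Ifnb1* most closely over the 6 libraries were *C130026I21Rik* (Pearson's r = 0.9986), *Gm48529* (0.9983), *Zbtb5* (0.9983), *Ifna2* (0.9980), *Chst1* (0.9970), *Gpbp1l1* (0.9970), *4930523C07Rik* (0.9966) and *Slfn10-ps* (0.9963). These values describe 6 libraries that share 2 genotypes, and with 13680 genes to choose from high values arise easily. After removal of the genotype means, *C130026I21Rik* (0.9996) again came first, followed by *Pafah1b2* (0.9972), *Zbtb5* (0.9970), *Ankmy1* (0.9956), *Gm48529* (0.9943), *Taf4b* (0.9923), *Smarca2* (0.9921) and *Gtf3c3* (0.9921). *Vcan* (0.9996), *Hnrnpd* (0.9987) and *Seh1l* (0.9985) followed *Ifnar1* most closely, and *Ergic3* (0.9979), *Ube2q1* (0.9978) and *Ctsa* (0.9970) followed *Ifnar2*. *Tpi1* (0.9820), *Gm10478* (0.9794) and *Dmrta2* (0.9762) came closest to *Ifngr1*, and *Pilrb2* (0.9940) and *Atxn7l3* (0.9932) to *Ifngr2*.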

How the data were processed

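Poly(A) RNA-Seq libraries of BMDM were analysed, 3 from PP2Ac KO and 3 from PP2Ac WT mice, grouped by the genotype in the labels. The authors deposited whole-number read counts per gene, without normalization. The submitters' processing notes name fastp 0.20.0, STAR 2.7.1a, HTSeq 0.11.2, kallisto 0.46.1, edgeR 3.34.0, limma 3.48.3 and the build mm10, and the strand setting and annotation release are not given in the sources used here. Reads were counted without molecular identifiers, so PCR copies count as separate reads.

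Counts were tested in R 4.3.3 with edgeR 4.0.16 (filterByExpr at its minimum count, 10, and minimum total, 15, TMM scaling, glmQLFit and glmQLFTest for genotype, Benjamini-Hochberg adjustment over 13680 genes). The fit was tested on simulated data. CPM use the TMM factors, and standard errors are the log2 fold change divided by the square root of F. Alternatives were RLE and upper-quartile scaling, other filters, the replicate block, each library left out, DESeq2 1.42.0 and limma-voom (limma 3.58.1). Library totals alone, and each other scaling with the block, were added after seeing the data. The pairing comes from the replicate numbers that both genotypes carry in the labels. Deviations from the genotype means correlated across 13680 genes at 0.289, 0.148 and 0.337 for replicates 1, 2 and 3. Libraries with different numbers were not compared in this way, so these values cannot show that the numbers mark pairs.

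The members and gene lists were chosen with earlier results of these data known. Named were all members and other ligands, in each further list the 3 called genes with the largest change and no overlap between groups, and for likeness 8 genes for *Ifnb1* and 3 for each receptor gene (log2 CPM with a prior count of 2). Some genes under this rule are not reported here. *Irf3*, *Cgas*, *Tmem173*, *Tbk1*, *Mavs*, *Jak1*, *Ciita*, *Clec9a*, *Fcgr1*, *Il10rb* and the markers given singly were named for their role or as exceptions after their values were seen. Coordinates and exons are those of GENCODE M21, which held 99.5% of the tested symbols and 9 of the 9 members.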

Additional observations from a re-analysis of the deposited data

How the results depend on the processing

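*Ifnb1* kept its direction and its call under all 17 alternatives. The number of members higher in PP2Ac KO was 3, and 5 with RLE scaling, with the replicate block, with the block and RLE or upper-quartile scaling, and with DESeq2, since *Ifnar1* and *Ifngr2* then passed. It was 2 with upper-quartile scaling, with at least 10 counts in every library, and with library totals alone with or without the block. It ran from 2 to 5 with a library left out, 5 without PP2Ac WT replicate 1, when *Ifna4* and *Ifnar1* passed. The number lower was 0, and 1 (*Ifngr1*) with library totals alone, with the block, and with the block and library totals or upper-quartile scaling. It stayed at 0 to 0 with a library left out. *Ifnar1* reversed to -0.025 and *Ifngr2* to -0.040 with library totals alone, with and without the block, as the median of all genes shifted. Of all genes, 2470 were higher (1974 to 2721 with a library left out) and 2604 lower (1873 to 2720). With library totals alone 1503 were higher and 6125 lower. With the block, 7598 were lower with library totals and 4640 with upper-quartile scaling. With the longest transcript as the length, 4 of 6 pairs of receptor genes kept their order by mean level over all 6 libraries. Depth limits the *Ifna* genes, where few counts leave wide errors. Groups of 3 were not searched for outlying libraries.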
